A study of Caenorhabditis elegans with 3 samples.

Results

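The fbxa, fbxb and fbxc genes of Caenorhabditis elegans encode F-box proteins, and they were described here in late L4 larvae, the last larval stage, and young adults. Members were all array spots that the platform's annotation assigns to a single gene whose symbol starts with fbxa-, fbxb- or fbxc- and a number. Together 264 spots named 261 genes, 137 of them fbxa, 84 fbxb and 40 fbxc, out of 15168 genes with a spot. Each of 3 two-channel microarrays compared RNA of a numbered preparation (prep 1, 2 or 3) of staged hermaphrodites, labelled TP06, with RNA of a mixed wild-type reference. The sources used here give neither the meaning of the label TP06 nor the genotype of the staged animals. The makeup of the reference is not given either. Nothing says whether the preps came from separate cultures, so the p-values cover only the spread between these preps.

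An F-box protein is the part of an SCF ubiquitin ligase that picks the substrate. Its F-box domain binds a Skp1-related (SKR) protein, which links it to the cullin CUL-1 and the RING protein RBX-1, and the ligase then attaches ubiquitin to the bound protein. Nematodes carry unusually many F-box genes, most of them in a few families that grew by tandem duplication, and the substrates of most of these proteins are not known. The fbxa proteins share a carboxy-terminal region with FOG-2, the F-box protein that lets hermaphrodites make sperm.

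Values are deposited log2 ratios. The labels put staged RNA in the second channel of every array but do not state the direction of the ratio, so a positive value was taken as probably higher in staged animals. With the opposite direction each higher or lower would turn. Staged RNA was never in the first channel, so an effect of the channel and one of the stage cannot be told apart. Of 30 major sperm protein genes 29 were higher, and the adult cuticle collagens col-7, col-19, col-62 and col-119 were all higher, at means of 2.03 to 4.05. The larval collagen col-36 was lower at -4.36 ± 0.32 (SD, n = 3), and hbl-1, a gene of larval timing, at -0.97 ± 0.45. The preps were not alike in oocyte genes. For oma-1, oma-2, rme-2, puf-5 and cbd-1 together, prep 1 had a median of 1.87, prep 2 of 0.44 and prep 3 of -0.10, and of these only cbd-1 passed the test, at 1.35 ± 1.26. The yolk genes vit-2, vit-5 and vit-6 had medians of 0.87, 0.15 and -0.54 in the same order, and 0 of the 3 passed limma's test (0 also at an unadjusted p under 0.05). The male genes lov-1, pkd-2 and klp-6 lay between -0.43 and 0.24, and 0 of the 3 passed (0 unadjusted). The part of these prep differences in the F-box values was not tested. In whole animals, fewer cells of a type and less RNA per cell cannot be told apart.

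The comparison asked which F-box genes differed between staged animals and the reference. Few were called, and most of those were lower. Of the 259 members with a value on all 3 arrays, 4 were higher and 19 lower (limma over all genes, Benjamini-Hochberg adjusted p under 0.05), that is 1.54% and 7.34% of members. Over all 15119 genes tested, 11.3% were higher and 9.37% lower. In either direction 23 members (8.88%) were called, against 20.7% of all genes. At an unadjusted p under 0.05 there were 15 higher and 41 lower members, 21.6% in all, against 33.7% of all genes. The counts depended on prep 1: without it limma called 2 members higher and 5 lower (2.70%), against 11.7% of all genes. Without prep 2 it called 3 and 12 members (5.79%), against 16.9% of all genes, and without prep 3 it called 4 and 13 (6.56%), against 19.2%. An exact sign-flip test of a single gene with 3 arrays could not go below p = 0.25, so single-gene calls rest on limma's shared variance.

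The log2 ratios of members lay close to 0. Intensities were not analysed here, so dim spots and RNA levels close to the reference cannot be told apart as sources of small ratios. The mean log2 ratios of members had an SD of 0.48 across genes, against 0.78 for all genes, and only 9 members (3.47%) differed 2-fold or more in either direction, against 14.9% of all genes. The spread over arrays was similar in size, with a median SD of 0.36 per member and 0.39 per gene over all genes. Medians of the members were -0.24, -0.22 and -0.12 for preps 1, 2 and 3, while those of all genes were 0.04, -0.09 and -0.06. Of members, 93 were negative on all 3 arrays (35.9%) and 31 positive on all 3 (12%), against 28.1% and 24.9% of all genes. Between arrays, Pearson's r was 0.33 to 0.53 over the 259 members and 0.65 to 0.68 over all genes. Both are across genes, which are not independent and share the reference RNA.

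**Figure D1:**
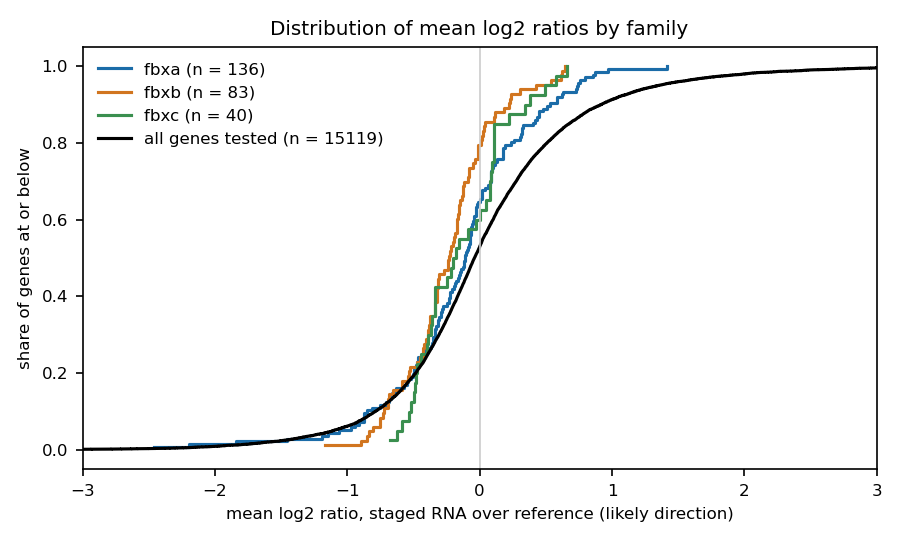
Cumulative share of genes (vertical axis) at or below each mean log2 ratio (horizontal axis, staged RNA over reference in the likely direction, mean of 3 arrays) for the fbxa, fbxb and fbxc members and for all 15119 genes tested. The families end at 1.42, 0.65 and 0.66 on the high side, while the curve of all genes runs on beyond the axis.

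Averaged over the arrays, all 3 families had medians below that of all genes. In prep 3 alone the fbxa median, at -0.046, lay above that of all genes, at -0.062. The differences between families were small and were not tested. The fbxa median was -0.14 ± 0.08 (SD of the median over 3 arrays), the fbxb median -0.29 ± 0.06, the fbxc median -0.18 ± 0.035, and that of all genes -0.04 ± 0.07. The fbxb median was the lower one against fbxa on each array, by 0.10, 0.17 and 0.19. Of 83 fbxb members, 66 had a negative mean (79.5%), against 88 of 136 fbxa members (64.7%), 24 of 40 fbxc members (60%) and 52.9% of all genes. Calls were 17 of 136 in fbxa (12.5%), 6 of 83 in fbxb (7.23%) and 0 of 40 in fbxc, against 20.7% of all genes. With limma at an unadjusted p under 0.05 the fbxc members had 1 higher and 3 lower (10%), against 33.7% of all genes.

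The lowest members were fbxa genes on chromosome II. The lowest of all, fbxa-164, gave log2 ratios of -2.57 (prep 1), -2.25 (prep 2) and -2.55 (prep 3), which average -2.46 ± 0.18 and make it 5.49-fold lower (limma adjusted p = 5.77e-05). Its 3 arrays lay close together, far below 0. Next was fbxa-24 at -2.14, -2.27 and -2.18, which is 4.58-fold lower (limma adjusted p = 0.00011) and had the tightest arrays among the called members, with an SD of 0.07. The gene fbxa-165 stood at -2.14, -1.40 and -1.98, or 3.58-fold lower (limma adjusted p = 0.000548). All 3 encode F-box proteins of this family with no role assigned here, and the calls of all 3 held whichever prep was left out.

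The genes fbxa-164 and fbxa-165 are neighbours. A run of 9 fbxa genes on chromosome II, in the order fbxa-161, fbxa-162, fbxa-163, fbxa-164, fbxa-165, fbxa-166, fbxa-158, fbxa-159 and fbxa-160, had medians of -0.97, -0.71 and -0.93 in preps 1, 2 and 3. Here a run is a set of members with at most 5 other protein-coding genes between successive ones in the RefSeq gene table. Of the 9 genes 4 were called lower (44.4%), against 9.37% of all genes. Each of the 9 had 1 sign on all arrays, 8 negative and 1 positive. Of all genes, 53% had 1 sign on all arrays and 28.1% were negative on all. The run was singled out because it holds the lowest member. Besides fbxa-164 and fbxa-165 the called ones were fbxa-162 at -1.40, -0.87 and -0.93 and fbxa-159 at -0.99, -1.11 and -0.72, both listed as pseudogenes by RefSeq. Their means were -1.06 ± 0.29 (limma adjusted p = 0.0111) and -0.94 ± 0.20 (limma adjusted p = 0.0185). Both calls were lost without prep 1 (limma adjusted p = 0.0684 and 0.0717). That of fbxa-159 was also lost without prep 2 (limma adjusted p = 0.0923).

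The rest of the run did not pass. In preps 1, 2 and 3, fbxa-163 stood at -0.96, -0.14 and -1.51, nearest 0 in prep 2 (limma adjusted p = 0.0549). The gene fbxa-160 stood at -0.97, -0.71 and -0.38 and the pseudogene fbxa-161 at -0.30, -0.33 and -0.93. The member fbxa-158, described with the CUL-6 ligase below, was at -0.75, -0.24 and -0.95. Only fbxa-166 was on the other side, at 0.12, 0.95 and 0.28, although its neighbours in the genome are fbxa-165 and fbxa-158.

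**Figure D2:**
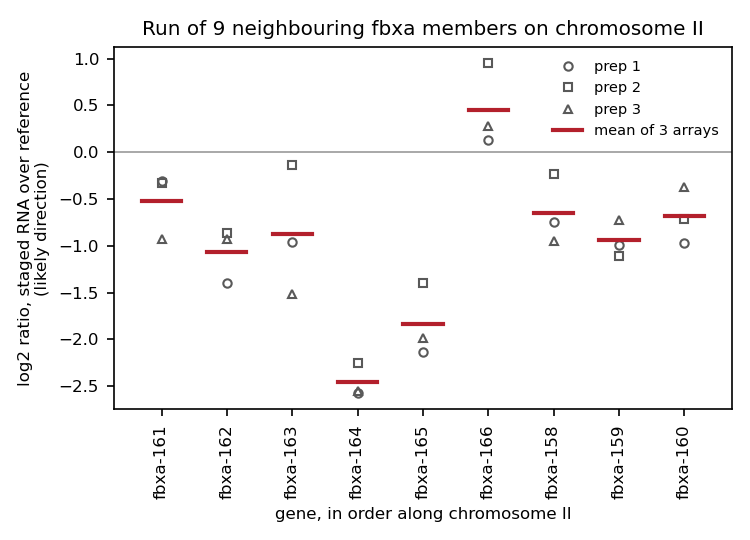
Log2 ratios (vertical axis, staged RNA over reference in the likely direction) of the 9 fbxa genes in their order along chromosome II, with open symbols for preps 1, 2 and 3 and red bars for their mean. The genes fbxa-164 and fbxa-165 stand lowest at -2.46 and -1.84, and fbxa-166 at 0.45 is the one gene above 0.

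Genes of the run also lay near each other on the array, mostly in 2 places, with 4 of their spots in each, spaced 4 apart in the probe order. The 9 other spots between them had a median of 0.78 in one place and 0.35 in the other, against -1.003 and -0.76 for the run's own spots there. With each array centred within its print blocks, the median of the run was -0.995 in place of -0.87. Apart from fbxa-160, the run's spots lay at 195 to 207 in block 1 and 5195 to 5207 in block 9, the same positions within blocks. Block centring does not remove an effect tied to a position within blocks, and such an effect was not tested. Closely related copies can share signal on an array; sequences of the members were not analysed here, so the single values of neighbouring members are uncertain.

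Without the run, 19 of 250 members (7.60%) were called, against 20.7% of all genes. Of these members 4 were higher (1.6%) and 15 lower (6%), against 11.3% and 9.37% of all genes. Chromosome II held a second pair of neighbours, fbxa-24 and fbxa-146, in which both were called. The pseudogene fbxa-146 was at -0.73, -1.26 and -0.75, a mean of -0.91 ± 0.30 (limma adjusted p = 0.0242). Its call was lost without prep 1 and without prep 2 (limma adjusted p = 0.0579 and 0.156). In all, 7 of 19 fbxa genes of chromosome II were called (36.8%), 1 higher and 6 lower. The share was 8.55% for fbxa genes of other chromosomes (10 of 117) and 21.4% for all genes of chromosome II. This split was picked out after the values were seen, and the difference was not tested. Of the 7 calls, 4 lie in the run of 9 neighbours, which are not independent.

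The other fbxa genes that were lower lay on chromosomes III, V and X. On chromosome III, fbxa-6 had ratios of -2.40, -1.0 and -0.97 (limma adjusted p = 0.00674), and prep 1 was the lowest by a wide margin; without prep 1 it stood at -0.99 with a limma adjusted p of 0.0510. On chromosome V, fbxa-69 was at -1.38, -1.36 and -0.83, or 2.28-fold lower (limma adjusted p = 0.00623), and kept its call with any prep left out. On the X chromosome the pseudogene fbxa-97 stood at -1.42, -0.86 and -1.16 (limma adjusted p = 0.00724), and without prep 1 its limma adjusted p was 0.0502. It was the one called member of 15 on the X.

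The remaining 4 lower fbxa genes were on chromosome V. The ratios of fbxa-185 were -1.58, -0.89 and -0.44, so prep 1 was again the lowest (mean -0.97 ± 0.58, limma adjusted p = 0.0287). It lies in a run of 8 members whose means were all negative, with a median of -0.49, or -0.21 with print-block centring. The genes fbxa-153 and fbxa-2 were even across arrays, at -1.02, -0.74 and -0.85 and at -0.66, -0.99 and -0.91. Named after its values were seen, fbxa-135 stood at -0.73, -0.61 and -0.93 with a limma adjusted p of 0.0464, just inside the threshold. The calls of fbxa-2, fbxa-135 and fbxa-153 were lost with any prep left out, and that of fbxa-185 without prep 1 and without prep 2. The largest limma adjusted p in those fits were 0.128 for fbxa-2, 0.199 for fbxa-135, 0.0978 for fbxa-153 and 0.168 for fbxa-185.

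The 4 members that were higher were all fbxa genes, on 3 chromosomes. The highest, fbxa-72 on chromosome V, had ratios of 2.18, 0.64 and 1.43, averaging 1.42 ± 0.77, or 2.67-fold higher (limma adjusted p = 0.007). It was highest in prep 1, and without prep 1 it stood at 1.03 with a limma adjusted p of 0.0664. The gene fbxa-196, also on V, was even across the arrays at 1.06, 0.78 and 1.07 (limma adjusted p = 0.0156), and its call was lost without prep 1 and without prep 3 (limma adjusted p = 0.0669 and 0.0572). On chromosome II, fbxa-224 had 1.13, 0.67 and 0.82 (limma adjusted p = 0.0268), and its call was lost with any prep left out (limma adjusted p = 0.116, 0.0525 and 0.0622 without prep 1, 2 and 3).

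The last of the 4, fbxa-51 on chromosome III, had 0.35, 1.04 and 1.00, with prep 1 the low one (limma adjusted p = 0.0483). Its call was lost without prep 2 and without prep 3 (limma adjusted p = 0.215 and 0.178), with arrays centred on their medians (0.0543) and with print-block centring (0.0532). It belongs to a run of 11 fbxa genes on that chromosome whose median was -0.06, and it was the only called gene there.

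**Figure D3:**
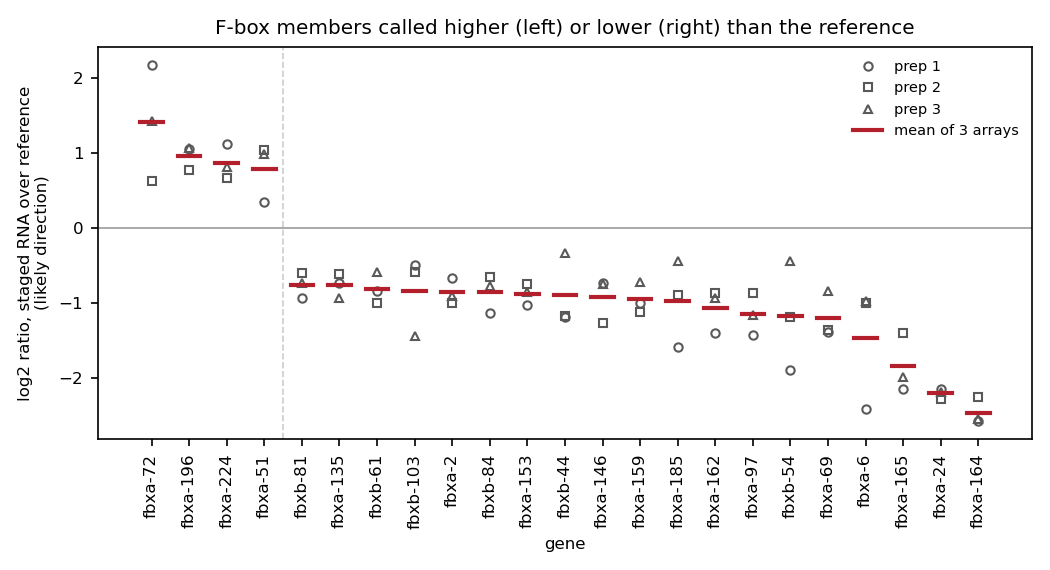
Log2 ratios (vertical axis, staged RNA over reference in the likely direction) of the 23 called members, the 4 higher ones left of the dashed line and the 19 lower ones right of it, with open symbols for preps 1, 2 and 3 and red bars for the mean. The genes fbxa-164, fbxa-24 and fbxa-165 stand apart at the low end, and fbxa-72 at the high end has prep 1 far above prep 2.

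The fbxb genes moved in 1 direction where they passed the test, with 6 lower and 0 higher (2 higher at an unadjusted p under 0.05 with limma). The 6 made up 7.23% of the family, while 9.37% of all genes were lower and 11.3% higher. The lowest was fbxb-54 on chromosome II at -1.89, -1.18 and -0.43, a mean of -1.17 ± 0.73 (limma adjusted p = 0.0169). It was lowest in prep 1 and nearest 0 in prep 3. In the same run of 7 fbxb genes lay fbxb-44 at -1.18, -1.17 and -0.33 (limma adjusted p = 0.0349), also nearest 0 in prep 3. The median of that run was -0.24, -0.54 and 0.15 in preps 1, 2 and 3, with 5 of 7 means negative.

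A run of 4 fbxb genes on chromosome III held 2 more, and it was described because it holds them. Over all genes 9.37% were lower, and the other runs of 4 members held 0 called genes. The genes fbxb-84 and fbxb-81 had means of -0.85 ± 0.25 and -0.75 ± 0.17 (limma adjusted p = 0.0301 and 0.0475). Their neighbour fbxb-82 at -0.72, -1.02 and -0.33 did not pass (limma adjusted p = 0.0768), and fbxb-83 at -0.14, 0.35 and -0.60 was on both sides of 0. The median of the run was -0.83, -0.63 and -0.67, negative on each array.

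The other called fbxb genes were fbxb-61 on chromosome V at -0.84, -1.0 and -0.58, in a run of 5 whose members were all negative on average, and fbxb-103 on chromosome II. With print-block centring fbxb-61 was no longer called (limma adjusted p = 0.137), and the median of its run was -0.17 in place of -0.43. The gene fbxb-103 was named after its values were seen. It had -0.49, -0.59 and -1.44, with prep 3 apart, and a limma adjusted p of 0.0483. All 6 fbxb calls were lost without prep 1. Those of fbxb-61, fbxb-81, fbxb-84 and fbxb-103 were also lost without prep 2 and without prep 3, and that of fbxb-44 without prep 2. At the high end of the family fbxb-99, fbxb-118 and fbxb-22, with means of 0.65, 0.62 and 0.61, did not pass. In fbxb-22 a single array carried the mean, with 1.98 in prep 2 against 0.10 in prep 1 and -0.24 in prep 3.

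No fbxc gene reached a 2-fold difference. Their means ran from -0.68 for the pseudogene fbxc-6 to 0.66 for fbxc-50. The low end was even across arrays, with fbxc-6 at -0.43, -0.69 and -0.91 and fbxc-2 at -0.71, -0.64 and -0.42, while fbxc-53 had -1.01, -0.66 and -0.19. The smallest limma adjusted p of the 3 was 0.0738, for fbxc-6. The high end rested on single arrays in 2 of 3 genes, as fbxc-50 had 1.51 in prep 1 against 0.15 and 0.32, and fbxc-24 had 2.14 in prep 2 against -0.18 and -0.23. The third, fbxc-48, had 0.08, 0.66 and 0.75.

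Of 40 fbxc genes 31 were on chromosome II, and 18 of them formed, with fbxa-200, the largest run of members, of 19 genes. That run had medians of -0.15, -0.22 and -0.23 in preps 1, 2 and 3, and 11 of its 19 means were negative. A run of 5 fbxc genes on chromosome IV, fbxc-1 to fbxc-5, had means between -0.59 and -0.34 and an SD of 0.10 among the genes. Its medians were -0.71, -0.48 and -0.32. None of its 5 genes passed limma's test; fbxc-2 had an unadjusted p of 0.0323.

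Members lay on every chromosome but not evenly. Of those tested, 94 were on II, 80 on V, 37 on III, 18 on IV, 15 on I and 15 on X. Calls were 10 on II, 8 on V, 4 on III and 1 on X, and 0 of 15 on I and 0 of 18 on IV (limma; 2 and 1 at an unadjusted p under 0.05). Per chromosome the share called was 10.6% on II, 10% on V, 10.8% on III and 6.67% on X, while 21.4%, 18.4%, 21.2% and 17.5% of all genes on these chromosomes were called. Of all genes on I and IV, 22.7% and 24.8% were called. The X-linked members had medians of 0.01, -0.12 and -0.53 in preps 1, 2 and 3, against -0.23, -0.18 and -0.41 for all genes of the X.

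Neighbouring members had loosely related values. Of 261 members, 188 lay in 44 runs of at least 2, and 133 in 19 runs of at least 4. Over 143 pairs of measured neighbours in a run, the mean log2 ratios correlated with Pearson's r of 0.36 and Spearman's rho of 0.29. For the 122 pairs whose spots lay in different print blocks of the array, r was 0.31. Such pairs can still share a place within their blocks, as fbxa-161 (spot 5207, block 9) and fbxa-162 (spot 207, block 1) do. Position in the genome and position on the array therefore cannot be told apart here. Without the 9-gene run on chromosome II, r was 0.29 over 135 pairs. A gene can stand in 2 pairs, and all pairs share the same arrays. Runs above the reference were rare. One of 5 fbxa genes on chromosome V, with fbxa-191, fbxa-192, fbxa-193, fbxa-129 and fbxa-108, had medians of 0.65, -0.0014 and 0.16, led by fbxa-192, named after its values were seen, at 1.19, 0.77 and 0.27, which did not pass (limma adjusted p = 0.0684).

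**Figure D4:**
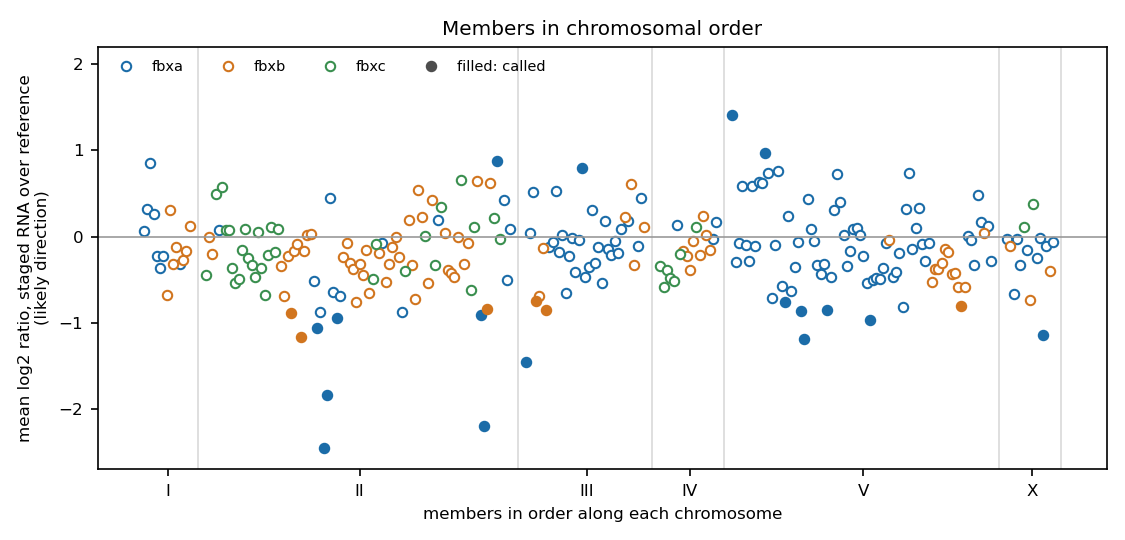
Mean log2 ratio (vertical axis, staged RNA over reference in the likely direction, 3 arrays) of 259 members in their order along each chromosome (horizontal axis, rank only), coloured by family and filled where called. The 2 lowest points lie on chromosome II, in separate places, and chromosomes I and IV hold no filled point.

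RefSeq lists 40 of the tested members as pseudogenes and 219 as protein-coding. Of pseudogenes 4 were lower and 0 higher (10% called, and with limma 2 higher at an unadjusted p under 0.05). Of coding members 15 were lower and 4 higher (8.68%), and of all genes 20.7% were called. The 4 called pseudogenes were fbxa-97, fbxa-146, fbxa-159 and fbxa-162. The pseudogene medians were -0.20, -0.19 and -0.01 in preps 1, 2 and 3, against -0.25, -0.22 and -0.16 for coding members.

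Some members were uneven between preps. The SD over arrays was above 1 in 9 of 259 members. The largest was that of fbxa-186, a pseudogene, with ratios of -2.10, 1.71 and -1.12, where prep 2 was on the other side of 0. In fbxa-23, also a pseudogene, preps 1 and 2 were opposed at -1.51 and 1.20, with -0.38 in prep 3. For 3 genes, named after their values were seen, the array carried 2 spots. The spots of fbxa-121 and fbxb-66 agreed in sign, with spot means of -0.31 and -0.42 and of -0.95 and -0.41, and those of fbxa-140 did not, at -0.85 and 0.03. Missing values left 2 members untested, fbxa-105 at -0.62 and -0.44 in preps 1 and 2 and fbxb-101 at -2.59 and 0.03 in preps 2 and 3.

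Among the partners of F-box proteins in the SCF ligase, 3 Skp1-related genes were lower. Of cul-1, rbx-1 and 16 Skp1-related genes measured, these 3 made up 16.7%, against 9.37% lower and 20.7% called among all genes. None was higher (limma; 1 higher at an unadjusted p under 0.05), and 15 did not pass. The gene skr-5 was at -2.41, -1.67 and -2.29, averaging -2.13 ± 0.40, or 4.36-fold lower (limma adjusted p = 0.00021). The pair skr-8 and skr-9 on chromosome IV stood at -2.01, -1.51 and -1.37 and at -1.99, -0.50 and -1.86 (limma adjusted p = 0.001 and 0.00702), and without prep 1 skr-9 did not pass (limma adjusted p = 0.0774). These genes are related in sequence and may share signal.

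The core genes of the ligase, named for their role, did not pass. The cullin gene cul-1 was at 1.08, 0.11 and -0.10, rbx-1 at 1.14, 0.40 and 0.28, and skr-1, the best known Skp1 gene of the worm, at -0.75, -0.69 and -0.09. In cul-1 and rbx-1 prep 1 was the highest of the 3, as it was in the oocyte genes. The median of the 18 genes was 0.03, -0.40 and -0.41 in preps 1, 2 and 3. Of 13 measured genes of other cullins and of cullin control by the ubiquitin-like protein NED-8, 0 passed limma's test (1 higher at an unadjusted p under 0.05), from cul-5 at -0.41 ± 0.36 to cand-1, whose product exchanges F-box proteins on CUL-1, at 0.60 ± 0.21. Their median was 0.42, -0.12 and 0.17.

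Among F-box genes with other names, 7 of 10 had positive means and 3 negative ones (30%), against 52.9% of all genes with a negative mean. Of the 10 measured, fsn-1, which acts with RPM-1 in synapse formation, was higher at 1.07, 1.24 and 0.34 (limma adjusted p = 0.0362), and 9 did not pass. The share called was 10%, against 20.7% of all genes. The fsn-1 call was lost with print-block centring and without prep 1 or prep 2 (limma adjusted p = 0.148, 0.150 and 0.191). The lowest was mfb-1 at -0.83, -0.93 and -0.30. The gene fog-2, needed for sperm in hermaphrodites, had 0.65, -0.04 and -0.14, and its closest relative ftr-1 had 0.99, 0.58 and 0.38 (limma adjusted p = 0.728 and 0.0906). The gene lin-23, which limits cell division, stood at 0.15 ± 0.33, and sel-10, which limits Notch signalling, at 0.34 ± 0.36. The median of the 10 was 0.49, 0.27 and -0.11 in preps 1, 2 and 3.

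**Figure D5:**
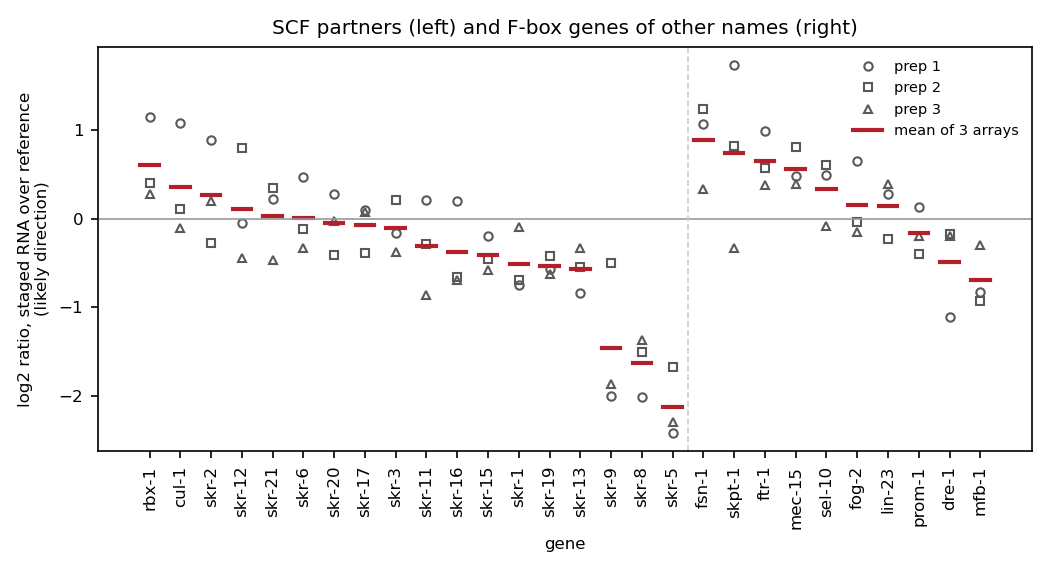
Log2 ratios (vertical axis, staged RNA over reference in the likely direction) of 18 SCF partner genes, left of the dashed line, and 10 F-box genes with other names, right of it, with open symbols for preps 1, 2 and 3 and red bars for the mean. The genes skr-9, skr-8 and skr-5 stand apart at means of -1.45, -1.63 and -2.13.

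Among the members, FBXA-75 and FBXA-158 are known as adaptors of a second ligase, built on the cullin CUL-6 with SKR-3, SKR-4 and SKR-5, which is raised when intestinal cells are infected by microsporidia or virus. Of its genes cul-6, skr-3, skr-5 and fbxa-158 were measured here on all arrays. Only skr-5, given above, passed. The gene cul-6 stood at -0.55, -0.02 and 0.44, skr-3 at -0.16, 0.21 and -0.38, and fbxa-158 at a mean of -0.65 ± 0.37 (limma adjusted p = 0.0973).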

How the data were processed

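Each of 3 arrays gave 1 log2 ratio per spot for 20000 spots, as deposited by the authors. The sources used here do not give the dyes, background correction or normalization. The base was checked: 2 raised to every low deposited value fell on a whole multiple of 0.001 within 1% of that step on all arrays. Values were present for 19927, 19825 and 19873 spots. Intensities were not analysed here, so dim spots could not be removed, and precision is limited by having 3 arrays.

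Gene names came from the platform annotation and RefSeq's gene table (WBcel235). Of the spots, 15655 had 1 gene, and 4 spots shared by a member and other genes were left out. All 264 member spots kept their symbol. Spots of 1 gene were averaged per array. The mean ratio was tested against 0 with limma 3.58.1 (R 4.3.3; lmFit, eBayes, two-sided) over 15119 genes with 3 values, which leaves out the reference's own spread. The fit was tested on simulated data. The member and partner lists, markers and naming rule (called members, at most 15 a direction, the 3 highest and lowest of each family, the 3 with the largest SD, members without 3 values, members of the runs described, the CUL-6 list, and called or extreme partners) were chosen with earlier results of these data known. Print blocks of 625 spots were inferred from the probe order. Alternatives changed centring, scaling, weights, variance prior, missing values, repeated spots, thresholds and the preps used.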

Additional observations from a re-analysis of the deposited data

How the results depend on the processing

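The 4 higher and 19 lower members became 7 and 22 with print-block centring (11.2% of members, against 20.1% of all genes). They became 1 and 6 at an adjusted p under 0.01, and 11 and 34 under 0.10. When a 2-fold difference was also asked for, they became 1 and 8. Shares of all genes at these other thresholds are not given here. Leaving out 1 prep gave 2 to 4 higher and 5 to 13 lower members; the fewest came without prep 1, and 5 of those 7 were among the 23. Print-block centring shared 17 of its 29 calls with the 23 and added 12, among them fbxc-6, the one fbxc gene of the 12. Centring on array medians kept 17 of the 23 and added 0 (6.56% of members called, against 18.7% of all genes). Quantile scaling, array weights, a robust variance prior, genes with at least 2 values and the first spot of each gene kept all 23 and added up to 3. These settings called 8.81% to 10% of members, against 20.6% to 21.8% of all genes. The medians of all members, fbxa and fbxb moved by less than their SD over arrays in every alternative run. The fbxc median went to -0.14 with arrays centred on their medians and to -0.31 with print-block centring; the cause was not tested. Restricted to protein-coding members, 4 were higher and 15 lower. Besides fbxb-44 and fbxb-81, arrays centred on their medians ended the calls of fbxa-51, fbxa-135, fbxa-185 and fbxb-103, and print-block centring ended those of these 4, fbxa-153 and fbxb-61. Of the named genes, 4 that were not called with all preps changed sign in the alternatives run. With 1 prep left out, fbxa-186 ranged from -1.61 to 0.30, fbxa-23 from -0.94 to 0.41, fbxb-22 from -0.067 to 1.04 and fbxc-24 from -0.20 to 0.98. At those ends limma called fbxa-186 lower without prep 2, and fbxb-22 and fbxc-24 higher without prep 3. With array weights fbxa-23 stood at 0.0061. With 3 arrays, small differences are below what the test can call. No paired analysis was possible because there is a single group.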
